A study of Mus musculus with 11 samples.

Results

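The cytosolic chaperonin TRiC (also called CCT) is built from the products of a small gene family, and the read counts at the promoters of its 9 listed mouse genes are described here: Tcp1, Cct2, Cct3, Cct4, Cct5, Cct6a, Cct6b, Cct7 and Cct8. They were picked by symbol from a deposited table of 21881 promoter windows, and all 9 had a window. The family was chosen with the ST18 and input reads of these same windows known, so every ST18 against input value is a description and no test was made. The counts came from chromatin immunoprecipitation followed by sequencing (ChIP-seq) with HA-tagged ST18, a DNA-binding zinc finger protein related to MYT1. The ST18 ChIP, labelled as 2 replicates, was set against 1 input library of genomic DNA. Both came from mouse cells that the labels call TN and describe as brain cells, with the ChIP done in vitro. What TN stands for is not stated. The growth and extraction protocols attached to the ChIP and input samples are those of the electroporated embryos of the RNA part, and no label names the promoter or construct that drove the tagged ST18. The input sample carries a molecule label of HA ChIP, whereas its title and description call it input, and the ratios below rest on the title. The 8 RNA samples, 4 ST18 knockdown and 4 non-targeting control, were not analysed here. DNA counts do not show which genes the cells expressed, so the brain cell label could not be checked against markers.

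TRiC is a barrel of stacked rings made of different but related subunits, and it uses ATP to fold newly made proteins inside its chamber. Actin and tubulin are its best known clients, so dividing cells and growing neurites depend on it. The co-chaperone prefoldin delivers these clients to the barrel. One subunit position, zeta, is encoded by a pair of genes in mice, of which Cct6a is widely expressed and Cct6b is known from testis. Some subunit genes are also known from disease outside the cortex: mutations of CCT5 in humans and of Cct4 in rats cause sensory neuropathy.

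Promoter sequences were taken from the RefSeq promoter table of GRCm38.p6, which spans 250 bases before to 50 after each annotated start. It held 10 promoters for 8 of the 9 genes, 2 each for Cct2 and Cct5. The read counts were made on another build, and where their windows lie around a start is not stated, so these sequences show the promoters of the genes and not the exact windows. The 250 bases before the start are shown for the subunits with the highest log2 enrichment (Cct3 and Cct6a), for Cct7 as a contrast with the most CCAAT matches, and for Cct5 and Cct8 as those with the most AAGTT matches. Capitals mark CCAAT, the box bound by NF-Y, and AAGTT, the core motif of the MYT1 family to which ST18 belongs, each read on either strand (ATTGG and AACTT are the other strand).
Cct3: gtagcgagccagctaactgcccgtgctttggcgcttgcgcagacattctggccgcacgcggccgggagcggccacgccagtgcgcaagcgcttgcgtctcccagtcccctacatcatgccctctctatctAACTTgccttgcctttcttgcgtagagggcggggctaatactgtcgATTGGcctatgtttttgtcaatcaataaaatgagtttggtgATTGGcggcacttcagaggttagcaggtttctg
Cct6a: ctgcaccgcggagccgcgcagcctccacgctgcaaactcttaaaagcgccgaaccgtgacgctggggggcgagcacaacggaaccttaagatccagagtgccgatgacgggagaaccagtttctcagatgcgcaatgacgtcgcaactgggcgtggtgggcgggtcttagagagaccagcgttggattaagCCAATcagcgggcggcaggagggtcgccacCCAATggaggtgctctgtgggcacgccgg
Cct7: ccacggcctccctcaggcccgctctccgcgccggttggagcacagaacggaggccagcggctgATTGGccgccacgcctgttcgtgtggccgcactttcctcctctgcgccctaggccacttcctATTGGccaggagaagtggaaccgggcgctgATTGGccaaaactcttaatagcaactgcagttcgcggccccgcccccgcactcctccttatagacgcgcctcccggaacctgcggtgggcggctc
Cct5: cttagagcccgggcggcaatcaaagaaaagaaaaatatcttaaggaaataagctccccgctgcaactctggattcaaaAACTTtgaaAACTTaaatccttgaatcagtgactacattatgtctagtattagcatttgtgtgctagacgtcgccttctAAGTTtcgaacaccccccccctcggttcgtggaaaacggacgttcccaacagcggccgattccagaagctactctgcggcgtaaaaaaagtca
Cct8: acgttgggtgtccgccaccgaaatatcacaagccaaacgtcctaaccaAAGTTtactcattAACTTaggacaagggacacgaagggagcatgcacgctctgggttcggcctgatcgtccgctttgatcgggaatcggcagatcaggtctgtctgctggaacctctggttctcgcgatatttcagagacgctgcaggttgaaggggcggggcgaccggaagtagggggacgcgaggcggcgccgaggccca
In GRCm38.p6 these stretches are chr3:88296885-88297134 on the plus strand, chr5:129787106-129787355 on the plus strand, chr6:85451255-85451504 on the plus strand, chr15:31601847-31602096 on the minus strand and chr16:87495870-87496119 on the minus strand. All are written 5′ to 3′ along the gene.

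Over the family, the promoters held more ST18 reads per input read than promoters did in general. The 9 windows together held 298 ST18 reads against 62 input reads. Divided by the same ratio over all windows, this was 1.76-fold (exact Clopper-Pearson 95% interval 1.33 to 2.35), and the folds below are all of this kind. The totals behind it were 438960 ST18 reads and 160443 input reads, and the typical window held 20 ST18 reads and 7 input reads (medians). The subunits were uneven: Cct3 had the highest ratio, followed by Cct5 and Cct6a, and Cct7 and Cct6b lay just under the ratio of all promoters. Without Cct3 the other 8 windows held 232 ST18 reads against 58 input reads, 1.46-fold (1.09 to 1.98). Without Cct3 and Cct6a, the remaining 7 windows stood at 1.32-fold (0.967 to 1.83), an interval that included 1. Each library kind had 1 column, so there is no replicate check, and the intervals cover counting error only. They do not account for the choice of the family.

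**Figure D1:**
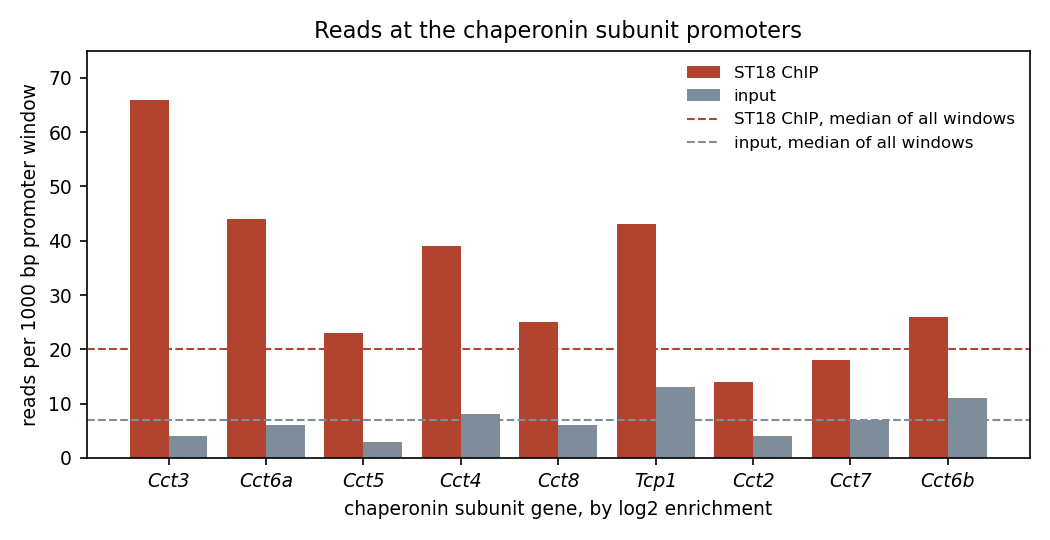
Reads per 1000 bp promoter window for the 9 subunit genes, with ST18 ChIP bars to the left of input bars and dashed lines at the medians of all windows (20 and 7 reads). ST18 reads ran between 14 at Cct2 and 66 at Cct3, and input reads between 3 at Cct5 and 13 at Tcp1.

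Cct3, which encodes the gamma subunit, held 66 ST18 reads against 4 input reads. That was 6.03-fold (2.25 to 22.8), and the authors' log2 enrichment of 1.10 was the 6th highest of the 21881 windows. Both columns contributed, since its ST18 reads ranked 25th of all windows while its input reads were under the median of 7. The interval is wide because only 4 input reads stand behind the ratio.

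Cct6a encodes the widely expressed form of the zeta subunit and held 44 ST18 reads against 6 input reads. That was 2.68-fold (1.14 to 7.70), and its log2 enrichment of 0.62 ranked 172nd. Its paralog Cct6b, the testis form, held 26 ST18 reads against 11 input reads, which is 0.864-fold (0.412 to 1.94), at a log2 enrichment of −0.02. Its ratio was thus lower than that of Cct6a, and the difference between the paralogs was not tested.

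Cct4 and Cct5 formed a middle pair. Cct4, the delta subunit, held 39 ST18 reads against 8 input reads, 1.78-fold (0.821 to 4.41), with a log2 enrichment of 0.41. Cct5, the epsilon subunit, held 23 ST18 reads against 3 input reads, 2.80-fold (0.847 to 14.6), with the same log2 enrichment of 0.41. They came to this value in different ways: the ST18 reads of Cct4 ranked 356th of all windows, whereas those of Cct5 ranked 7537th and its input count was the lowest of the family.

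The other subunits lay closer to the average promoter. Cct8, the theta subunit, had 25 ST18 reads against 6 input reads (1.52-fold, 0.610 to 4.54) and, at 0.25, the median log2 enrichment of the family. Tcp1, the alpha subunit after which the protein family is named, had 43 ST18 reads against 13 input reads (1.21-fold, 0.638 to 2.45) at a log2 enrichment of 0.21. It ranked 160th for ST18 reads, close to Cct6a, but also held the most input reads of the family. Cct2, the beta subunit, had the fewest ST18 reads, 14 against 4 input reads (1.28-fold, 0.402 to 5.34), at 0.12. Cct7, the eta subunit, had 18 ST18 reads against 7 input reads (0.940-fold, 0.375 to 2.66) at 0.02. All of these intervals included 1, and for each of them a 2-fold higher ratio lay within the interval, so such a difference was not detectable at this depth.

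**Figure D2:**
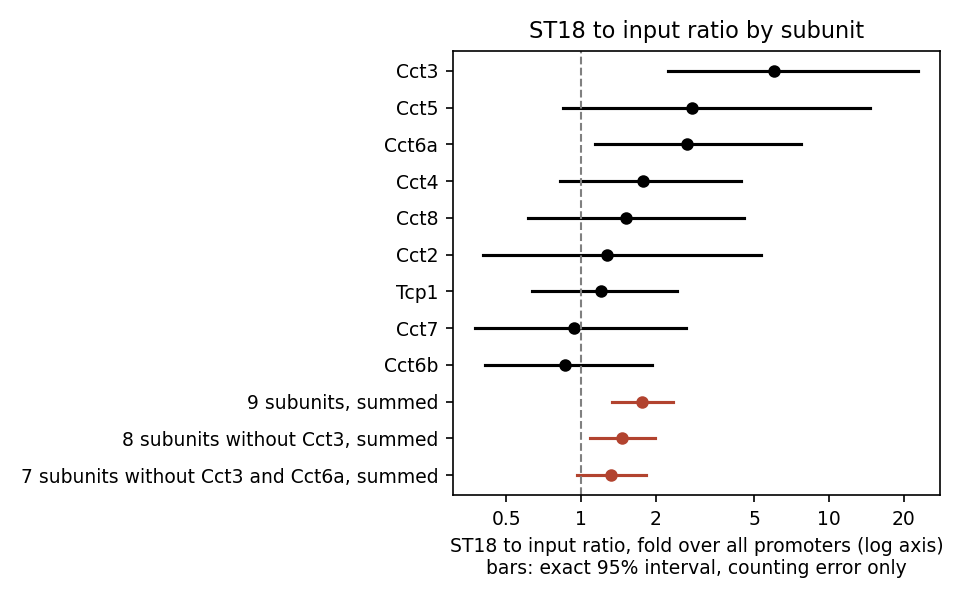
ST18 to input ratio of each subunit promoter as a fold over all promoters, on a log axis, with exact 95% intervals for counting error (black), and the summed ratio of 9, 8 and 7 subunits (red). The intervals of Cct3 and Cct6a lie above 1, and the summed ratio is 1.32 without those 2 and 1.76 with all 9 subunits.

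The deposited log2 enrichment adds 16 to both counts before the ratio is taken, which pulls windows of few reads towards 0. On that scale the family had a median of 0.25, a mean of 0.34 ± 0.35 (SD across the 9 windows) and a range of −0.02 to 1.10, against a median of 0.04 (interquartile range −0.10 to 0.19) over all windows. The value exceeded the median of all windows in 7 of the 9, with Cct7 and Cct6b below it; 49.6% of all windows exceed it. A log2 enrichment of 0.58 was reached by Cct3 and Cct6a, 2 of 9 members, against 1.15% of all windows. Cct6a was near that threshold: with the columns scaled to their promoter totals its value was 0.54, so 1 member remained, against 0.608% of all windows. Only Cct3 reached 1, as did 0.0548% of all windows. The exact interval lay above 1 in 2 members, Cct3 and Cct6a, against 2.37% of all windows, and below 1 in none, against 3.24%. As the family was chosen on these same counts, these shares place it among the windows and do not test it.

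**Figure D3:**
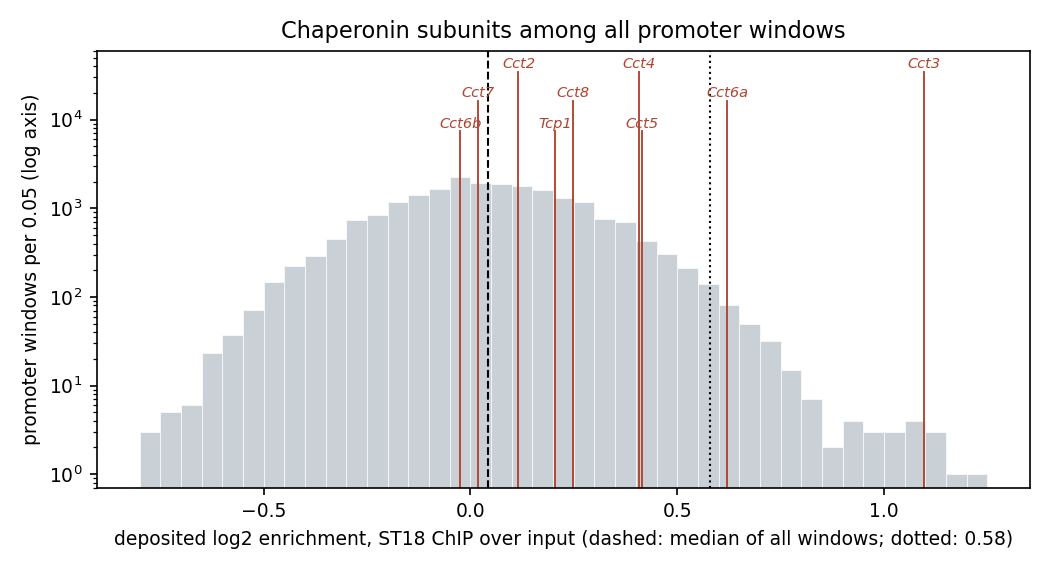
Histogram of the deposited log2 enrichment of ST18 ChIP over input for all 21881 promoter windows, with a log axis for the number of windows and red lines at the 9 subunits. Cct3 stands in the sparse right tail at 1.10, Cct6a just past 0.58, and the other 7 between −0.02 and 0.41.

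Base composition and depth are given beside these values. The 10 RefSeq promoters of the family had a median GC content of 60.3% (range 47.3 to 67.7) and a median of 25 CpG dinucleotides (19 to 30), against medians of 52.7% (interquartile range 45.7 to 61.7) and 7 (3 to 20) over all 32851 promoters of the table. Adding both columns, the median depth was 37 reads per subunit window, against 28 per window in the whole table, and Cct2, Cct7 and Cct5 were below 28. The 12270 windows whose gene had exactly 1 promoter in the table were put into 4 groups of about equal size by GC content. The share at a log2 enrichment of 0.58 or more was 0.130% in the group lowest in GC and 1.92% in the group highest in GC. It was 1.30% in the third group, whose median GC content of 60.7% was the nearest to that of the family. From the lowest to the highest group in GC, the median depth was 19, 28, 31 and 31 reads. Up to the third group, GC content and depth rose together, so these groups do not separate them. The third and highest groups shared a median depth of 31 reads, with shares of 1.30% and 1.92%. The part of base composition or depth in the family's values was not tested.

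Most of these genes start beside a gene on the other strand. Of the 8 subunit genes with a RefSeq promoter, 7 had another gene whose annotated start lay within 2 kb in GRCm38.p6. All 7 of these neighbours ran in the opposite direction. The share of all RefSeq promoters with such a neighbour was not computed, so this count is not shown to be particular to the family. For 6 of them the promoter table held a window, which may share reads with that of the subunit. The Cct3 start lay 136 bp from that of Tsacc, listed as 1700021C14Rik, which encodes a co-chaperone of a testis kinase. Its window held 66 ST18 reads against 5 input reads, nearly the counts of Cct3 itself. Cct6a lay 103 bp from Psph, which encodes the phosphatase of the last step of serine synthesis, and Psph itself had 52 ST18 reads against 6 input reads and ranked 41st at a log2 enrichment of 0.75. Thus the pairs of Cct3 and Cct6a were high at both genes, and their windows cannot assign the reads to one gene or the other.

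In the other 4 pairs the gap between the genes ran from the narrowest to the widest of the 6. Cct5 lay 270 bp from Fam173b, which encodes a mitochondrial lysine methyltransferase, and the Fam173b window, with 31 ST18 reads against 2 input reads, had a log2 enrichment of 0.67, above that of Cct5. Tcp1 lay 238 bp from Mrpl18, a mitochondrial ribosomal protein gene with 40 ST18 reads against 11 input reads and a log2 enrichment of 0.26, only 0.05 from Tcp1. Cct7 lay 203 bp from the nearest start of Pradc1, listed as 1700040I03Rik, which held 45 ST18 reads against 9 input reads. At 0.45, this neighbour was 0.44 above Cct7 on the log2 scale, the widest gap of the 6 pairs. Cct6b lay only 24 bp from Zfp830, a zinc finger gene with 22 ST18 reads against 16 input reads, and both were below the median of all windows, at −0.02 for Cct6b and −0.36 for Zfp830. In all, the 6 subunits of these pairs held 220 ST18 reads against 44 input reads, and their 6 neighbours held 256 against 49. The neighbour had the higher log2 enrichment in 4 of the 6 pairs. For Cct8 the neighbour had no window in the table, Cct2 had no neighbour within 2 kb, and Cct4 was not examined for lack of a promoter sequence.

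**Figure D4:**
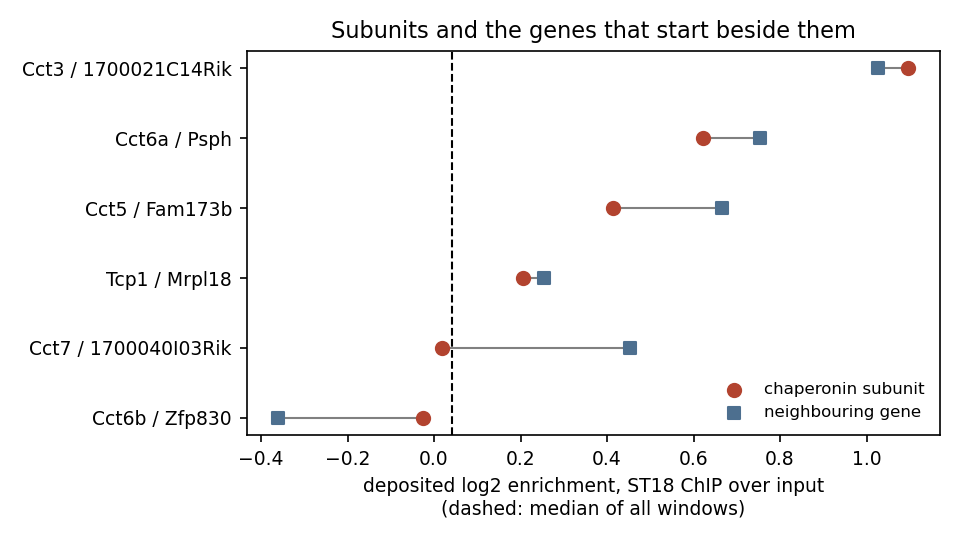
Deposited log2 enrichment of ST18 ChIP over input for 6 subunit genes (red circles) and the gene that starts within 2 kb of each (blue squares), with a dashed line at the median of all windows. Both genes lie above 0.58 for Cct3 and Cct6a and both lie below the median for Cct6b, whereas Cct7 and its neighbour lie on opposite sides of it.

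Of the motifs searched, the GC box GGGCGG was in all 5 promoters shown above, and CCAAT and AAGTT were in some of them. CCAAT had 2 matches in Cct3, which began 74 and 33 bases before the start, 2 in Cct6a (59 and 29 bases before), 3 in Cct7 (187, 125 and 95 bases before), and 1 each in Tcp1 and Cct6b. It had none in Cct2, Cct5 and Cct8. That made 5 of the 10 promoters, while 37.4% of all RefSeq promoters held at least 1 match and 11.7% at least 2. The subunits with 2 or more matches were Cct3 and Cct6a, highest in log2 enrichment, and Cct7, second lowest.

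The MYT1 family core AAGTT was present in Cct3 (1 match, 120 bases before the start), Cct8 (2 matches), Cct2 (1 match in each of its 2 promoters) and 1 of the 2 Cct5 promoters (3 matches). It was thus in 5 of the 10 promoters, and in 39.3% of all promoters. The longer form AAAGTTT, which contains the core, matched once in Cct5 and once in Cct8, and in 4.74% of all promoters. Cct6a held neither form in its 300 bases. Pairs of heat shock element units, which are bound by heat shock factors, were found in Cct6a and Cct5 as TTCNNGAA (8.52% of all promoters) and in 1 Cct2 promoter as GAANNTTC (7.86%). No promoter of the family held a heat shock element of 3 alternating units in the exact spacing searched. It occurs in 0.603% of all promoters, so 10 promoters would usually hold none. The GC box GGGCGG, bound by Sp1, was in 8 of the 10 promoters and in each of these genes but Cct6b, against 35.7% of all promoters, and TATAAA was in none, against 13.6%. These matches describe the letters only and are not binding sites.

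The partners and clients of the chaperonin were examined in lists that were also chosen with earlier results known. Prefoldin, which hands clients to TRiC, had 5 of 6 symbols in the table and 88 ST18 reads against 29 input reads, 1.11-fold (0.722 to 1.75), between Pfdn4 at a log2 enrichment of 0.29 and Pfdn1 at −0.24. None of the 5 reached 0.58, which 1.15% of all windows reached. Phosducin-like cofactors and other genes listed here as TRiC partners held 110 ST18 reads against 58 input reads over 6 windows. This was 0.693-fold (0.50 to 0.970), between Txndc9 at 0.22 and Nek2 at −0.39. Nek2 alone held 19 ST18 reads against 15 input reads, 0.463-fold (0.223 to 0.979). The summed fold of this list without Nek2 was not computed. The chaperonin-like genes of Bardet-Biedl syndrome had 50 against 22 reads over 3 windows, 0.831-fold (0.494 to 1.44), with Mkks at 0.37 and Bbs10 at −0.41. No window of these partner lists reached 0.58. With 1.15% of all windows reaching it, lists this short would usually hold none.

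Among the clients, the 6 actin windows had a median log2 enrichment of 0.37 and held 176 ST18 reads against 44 input reads, 1.46-fold (1.05 to 2.08). One of them passed 0.58, against 1.15% of all windows. It was Acta1, skeletal muscle actin, at 0.73 with 34 ST18 reads against 2 input reads, 6.21-fold (1.59 to 53.4). The summed fold of the actins without Acta1 was not computed. Actg1, a cytoplasmic actin, was lowest at −0.32. The 17 tubulin windows held 429 ST18 reads against 145 input reads, 1.08-fold (0.894 to 1.31). They ran from Tubg1, the gamma-tubulin of the centrosome, at 0.49 to Tuba8 at −0.38. None reached 0.58, which 1.15% of all windows reached. The tubulin cofactors, which act on tubulin after TRiC, stood at 1.03-fold (0.742 to 1.45) over 5 windows, with Tbcc at 0.42 and Tbce at −0.27. The WD40 and other known clients stood at 0.837-fold (0.673 to 1.04) over 14 windows, with Gnb5 at 0.32 and Plk1 at −0.32.

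For other chaperones, the values stood as follows. Of the mitochondrial chaperonin, Hspe1 had 124 ST18 reads against 15 input reads and Hspd1 had 114 against 16, at log2 enrichments of 1.10 and 0.96. Summed, they stood at 2.81-fold (1.92 to 4.22). Those 2 genes are neighbours and may share reads. The 8 cytosolic Hsp70 and Hsp110 windows, summed, stood at 1.80-fold (1.36 to 2.41), where TRiC stood at 1.76-fold. They ranged from Hsph1 at 1.21 to Hspa4 at −0.39. Their median was 21.5 ST18 reads and their highest count 104. The exact interval lay above 1 in 2 of them (2.37% of all windows) and below 1 in 1 (3.24%). Summed folds with windows left out were not computed for this list. The differences between these lists were not tested, since the table has 1 column for each library kind.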

How the data were processed

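The deposited table gives whole-number read counts in 1000 bp promoter windows for ST18 and input, 1 window per symbol, and the authors' log2 enrichment. The submitters' processing notes name Bowtie, TopHat2 2.0.8, HTSeq 0.5.4p1, edgeR, MACS2 2.0.10.20120913 and mm9, without saying which made this file. Whether the ST18 column pools both ChIP replicates is not stated. The deposited log2 values were recomputed from the counts: ST18 reads were scaled by 0.406, 16 was added to each column, and the log2 of the ratio was taken. The deposited other column, window width, was 1000 throughout. The peak list was not used, since it could not be set against genes without an mm9 annotation.

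The members and gene lists were chosen with earlier results of these data known. Folds are ST18 over input counts divided by that ratio over all promoters, with exact (Clopper-Pearson) 95% intervals (scipy 1.17.1), checked on simulated counts. Molecular identifiers are not mentioned in the labels, so copies of the same molecule could not be recognised. The intervals treat each read as an independent draw and cover counting error only, so such copies would make them too narrow. Named genes were the 9 members, genes starting within 2 kb of one, and the highest and lowest window of each list. Neighbours and sequences came from RefSeq GRCm38.p6. Other scalings, pseudocounts, thresholds, an input filter and leaving out members were tried.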

Additional observations from a re-analysis of the deposited data

How the results depend on the processing

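Scaling to the median of the window ratios was added after seeing the data; the other settings were planned. The summed fold of 1.76 lay between 1.46 (without Cct3) and 1.95 (without Cct6b) when 1 member was left out. It was 1.95 with the deposited scale factor, 1.74 without the 1% of windows with most input reads and 1.75 with the median ratio. Over members with at least 6 input reads, which drops Cct2, Cct3 and Cct5, it was 1.40. The ratio of all promoters was not filtered in this way, so 1.40 is not a like comparison. Under that filter the median log2 enrichment of all windows was −0.0045, against 0.04 unfiltered. All 18 recomputed folds of single members stayed within their own counting intervals. This was bound to happen, since each setting rescaled all members by the same factor, small beside the intervals. The median log2 enrichment of 0.25 became 0.67 with a pseudocount of 1, where that of all windows was 0.12, and stayed within the counting interval of the median member under the other settings. The 2 members at a log2 enrichment of 0.58 became 1 at a threshold of 1 and 4 at 0.32 (against 10.9% of all windows). Scaled to promoter totals, 1 remained. With a pseudocount of 8 the count was 3 (against 6.98% of all windows), and with 1 it was 5 (against 24.1%). Over members with at least 6 input reads, 1 remained (against 0.332%). These changes follow from how the settings were built. Input counts of 3 to 13 reads per member limit every ratio. Replicates could not be left out, since there is 1 ST18 column. No paired analysis was possible because that column names no replicate and the RNA samples were not used.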

Other observations

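Across the 12270 windows whose gene had exactly 1 RefSeq promoter, 4 of the motifs counted at the chaperonin subunits were set beside the log2 enrichment of ST18 ChIP over input. For the GC box GGGCGG, the motif found in most promoters of the family, the median was 0.06 in 3416 windows with 2 or more matches, 0.06 in 2504 windows with 1 and 0.02 in 6350 windows with none. The share of windows at 0.58 or more was 1.43%, 1.60% and 0.630% in the same order, and median GC content was 67%, 60% and 49%. Their median depth was 30, 30 and 25 reads. For CCAAT the median was 0.01 in 1638 windows with 2 or more CCAAT matches, 0.04 in 3229 windows with 1 and 0.05 in 7403 windows with none. The shares at 0.58 or more were 1.04%, 0.805% and 1.16% in the same order. For the MYT1 family core AAGTT the medians were 0.02 in 1383 windows with 2 or more matches, 0.03 in 3235 windows with 1 and 0.05 in 7652 windows with none. The shares at 0.58 or more were 0.795%, 0.711% and 1.24% in the same order. Windows with more AAGTT matches were poorer in GC, with median GC contents of 46.7%, 53% and 60% in the same order. They also held fewer reads, with median depths of 23, 27 and 29. For the 3-unit heat shock elements the median was 0.02 in 57 windows with 1 match and 0.04 in 12209 windows with none. Of the 57 windows, 1 (1.75%) reached 0.58, against 1.03% of those with none. Median GC content was 46% and 57%, and median depth 22 and 28 reads, in the same order. These values are descriptions over windows of 1 pair of columns, and no cause was tested.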
